A study of Mus musculus with 10 samples.

Results

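Cytochrome P450 genes of families 1 to 4 were examined in RNA-seq counts of the mouse cochlea. The members were all protein-coding genes whose symbol is Cyp, a family number from 1 to 4, a subfamily letter and a gene number. They numbered 80 of the 54532 genes counted, with 3 in family 1, 48 in family 2, 9 in family 3 and 20 in family 4. These families were chosen from values of the same comparison, because Cyp4b1 and Cyp2e1 ranked high in the test of NR-treated against non-treated mice. All values of that comparison for the members are therefore given as a description and not as a test of the families.

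P450 enzymes bind a heme through a cysteine and use oxygen and electrons to oxidize their substrates. Families 1 to 3 are known mainly for drugs, pollutants and steroids, and family 4 for the omega-hydroxylation of fatty acids and eicosanoids. Most are anchored in the endoplasmic reticulum, where the reductase Por hands them electrons, and many are most abundant in the liver, with others at high levels in epithelia of the lung and nose. Several are textbook targets of nuclear receptors or of the aryl hydrocarbon receptor (AHR).

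Both groups were 12-month-old mice of the mtKeima strain, which carries a transgene for a mitochondrial fluorescent reporter. Nicotinamide riboside (NR), a precursor of NAD+, was given to the 5 NR-treated mice at 7 mg/ml (24 mM) in their water for 10 months, starting at the age of 2 months. The 5 non-treated mice had regular water. Each library held the cochlear RNA of 1 mouse, so replicate spread is the spread between mice, and in such bulk tissue fewer cells of a type and less RNA per cell cannot be told apart.

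The totals were 17060379 to 24419230 counts per mouse. The labels call all mice female, while the methods describe males. The Y-linked genes Ddx3y, Uty, Kdm5d and Eif2s3y were found in every library, with Ddx3y at 64.5 to 84.9 counts per 1000000 (CPM, with library sizes scaled by the TMM method of edgeR), and Xist, which female cells transcribe, was at 0.0881 to 0.405 CPM. The data therefore went against the sex in the labels. All 11 markers of the cochlea were detected, such as Coch at 2110 to 4200 CPM and the hair cell gene Otof at 52.3 to 203 CPM. The library of non-treated replicate 2 stood apart with a summed level of 34000 CPM for 12 genes of airway and middle ear epithelium, against 841 to 7660 CPM in the other 9 mice, and results that rest on it are given with and without it. In replicate 2 of the NR-treated mice, the 11 genes of neutrophils and myeloid progenitors summed to 1440 CPM, against 4130 to 4820 CPM in the other NR-treated mice.

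The loop that holds the heme is the most recognizable stretch of a P450 gene. Its codons were searched in the 80 coding sequences of the GENCODE M21 annotation (mm10) as phenylalanine, any 2 residues, glycine, any residue, arginine, any residue, cysteine, any residue and glycine, and 77 of 80 held them. The exact pattern was not found in Cyp2b10, Cyp2s1 and Cyp3a59. In 66 of the 77 genes, the codons were split over an intron. The 30 bases are shown for the genes on which the results turn, with the cysteine codon in capitals.
Cyp4b1: ttttctgcagggcccaggaatTGCattggg
Cyp2e1: ttttctgcaggaaagcgcgtgTGTgttgga
Cyp2f2: ttttcggctggacgtcgactgTGTctggga
Cyp1b1: ttctcagtgggcaaacggaggTGCatcggt
Cyp4a12a: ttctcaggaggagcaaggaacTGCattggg
Cyp4a12b: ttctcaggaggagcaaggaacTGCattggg
Cyp2a5: ttttccattggaaaacggtatTGTttcgga
Cyp2a4: ttttccattggaaaacggtatTGTttcgga

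The loop of Cyp4b1 lay on the minus strand of chr4:115625216-115625662 and placed cysteine 453 in a protein of 511 residues. In Cyp2e1 it was cysteine 437 of 493, from chr7:140773762-140774577, and in Cyp2f2 cysteine 436 of 491, from chr7:27132606-27133235. In Cyp1b1 all 30 bases lay in the last of 3 exons, at chr17:79710309-79710338. Cyp4a12a and Cyp4a12b had the same 30 bases, as did Cyp2a5 and Cyp2a4. Such copies bear on the counts, because reads that fit 2 genes equally well are not assigned in the default counting. Of all 100-base windows of their transcripts, Cyp4a12a shared 35.8% and Cyp4a12b 36.2% with another gene, in each case mostly with the other. For Cyp2a5 the share was 12.1%, mostly with Cyp2a4, which had 0 reads. The share was 3.40% for Cyp4b1, with the pseudogene Cyp4b1-ps1, 1.16% for Cyp2e1 and 0% for Cyp2f2. Among tested members, 16 had no shared window.

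Of the 80 genes, 29 had 0 reads in all 10 mice and 51 had at least 1 read. A count of 0 allows up to 3 reads, which is 0.123 to 0.176 CPM in these libraries. Only 27 genes had enough reads for the comparison (the filterByExpr rule of edgeR), and the other 24 with reads had between 1 and 63 in all. The measured genes were unevenly spread over the groups in which P450 genes neighbour each other. In the Cyp2c group on chromosome 19, whose enzymes are abundant in the liver, 13 of 14 genes had 0 reads and none was tested. In the Cyp3a group on chromosome 5, 7 of 8 had 0 reads and none was tested, and the only tested Cyp3a gene, Cyp3a13, lies outside that group. By contrast, 6 of the 8 Cyp4f genes on chromosome 17 and 6 of the 13 genes of the chromosome 7 group that runs from Cyp2s1 to Cyp2t4 were tested. The Cyp2d group on chromosome 15 had reads for all 8 genes, but only Cyp2d22 was tested.

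**Figure D1:**
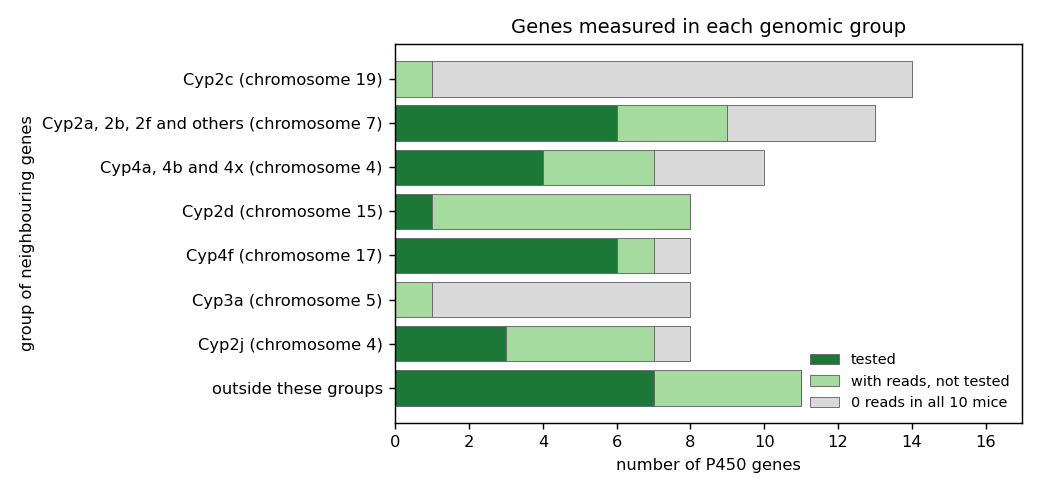
Number of P450 genes (horizontal axis) in each group of neighbouring genes, split into tested genes, genes with reads that were not tested, and genes with 0 reads in all 10 mice. The Cyp2c bar holds 13 of 14 genes with 0 reads and the Cyp3a bar 7 of 8, while 6 of 8 Cyp4f genes were tested.

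Most of the genes that textbooks use as reporters of liver receptors were scarce. Cyp1b1, also among the 9 textbook induced genes, was not, with 67 to 98.1 CPM over the mice. Cyp1a1, the classical AHR target, had 3 to 19 reads per mouse and a mean level of 0.552 ± 0.140 CPM in NR-treated and 0.429 ± 0.277 CPM in non-treated mice (SD, n = 5). Its neighbour Cyp1a2 had 7 reads over all mice. Cyp4a10, a target of PPAR alpha, had 3 reads in all, and Cyp4a14, Cyp2c29 and Cyp3a11 had 0. Cyp2b10, the usual target of the receptor CAR, was tested, with 2.27 to 17.2 CPM. Of the 12 hepatocyte markers, 9 did not reach the filter, and Alb was at 0 in 8 of 10 mice and at no more than 0.0872 CPM in the rest. The list summed to 14.7 to 55.3 CPM, most of it from Ttr, at 11.2 to 51.7 CPM.

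Levels of different genes were compared per length, as reads per kilobase of gene and per 1000000 TMM-scaled counts (FPKM). Cyp2f2, which is known from the club cells of the airway, where it oxidizes naphthalene, was the most abundant member with a mean of 109.9 FPKM over the 10 mice. It was followed by Cyp2d22 with 27.6 FPKM, the fatty acid epoxygenase gene Cyp2j6 with 16.2 FPKM and the estrogen hydroxylase gene Cyp1b1 with 15.6 FPKM. Then came Cyp4f17 (10.5 FPKM), Cyp2a5 (9.10 FPKM), Cyp4f13 (7.74 to 9.80 FPKM over the mice), Cyp4f16 (7.37 FPKM), Cyp4b1 (7.34 FPKM) and Cyp2s1 (5.90 FPKM). The Cyp4f genes belong to a subfamily that inactivates leukotrienes, Cyp2a5 oxidizes coumarin and nicotine, and Cyp2s1 is a gene of epithelia. Cyp2e1 was lower, with 3.34 FPKM.

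**Figure D2:**
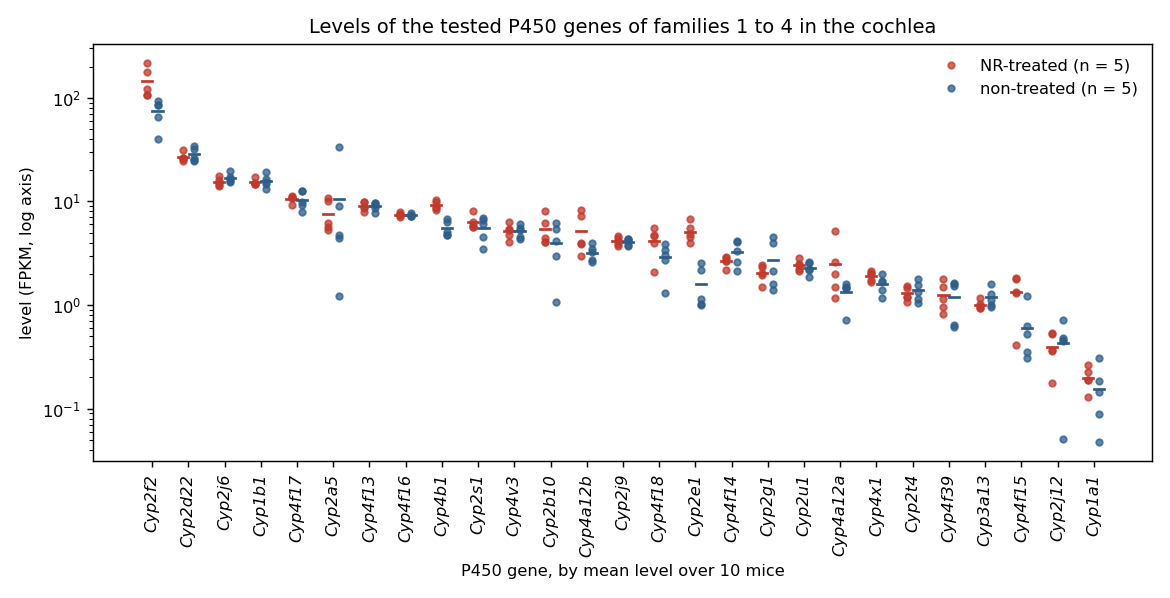
Level of each tested P450 gene in FPKM on a log axis, one point per mouse, with a line at each group's mean. Cyp2f2 lies above all other members in every mouse, from 39.9 to 217 FPKM. Cyp2a5 has the widest spread on this log axis, from 1.23 to 33.3 FPKM.

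Neighbours in that order were compared within mice, with an exact two-sided sign-flip permutation test over the 10 mice on log2(FPKM + 0.1) and Benjamini-Hochberg adjustment over the 9 pairs. The order and the test used the same mice, and the smallest p the test allows is 0.00195. Cyp2f2 was above Cyp2d22 in 10 of 10 mice, by 1.86 ± 0.74 on the log2 scale (SD, adjusted p = 0.00439, exact permutation test). The same adjusted p and the same 10 of 10 mice were found for Cyp2d22 above Cyp2j6 (0.76 ± 0.12), Cyp1b1 above Cyp4f17 (0.57 ± 0.23) and Cyp4f13 above Cyp4f16 (0.28 ± 0.12). The remaining 5 pairs did not differ beyond their spread. Cyp2j6 and Cyp1b1 differed by 0.06 ± 0.18 (adjusted p = 0.413, exact permutation test). Cyp2a5 came before Cyp4f13 by its mean FPKM but was lower on the log2 scale in 6 of 10 mice, with a mean difference of -0.43 ± 1.22. Its mean rests on non-treated replicate 2, and without that mouse Cyp4f17 exceeded Cyp2a5 by 0.94 (adjusted p = 0.0141, exact permutation test). Cyp4b1 was above Cyp2s1 in 8 of 10 mice, by 0.29 ± 0.39 (adjusted p = 0.0703, exact permutation test). In the 5 non-treated mice alone that difference was 0.03, and Cyp4f16 was above Cyp4b1 by 0.42 instead of 0.06, so the place of Cyp4b1 in the order rests on the NR-treated mice.

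Next, NR-treated mice were compared with non-treated mice. Of the 27 tested members, 17 had a higher and 10 a lower fitted level in NR-treated mice, and their median log2 fold change was 0.03, against -0.01 over all 18329 tested genes. At an unadjusted p of 0.05 (edgeR quasi-likelihood test), 6 members were higher, while 4.83% of all tested genes were called higher. In the other direction 0 members were called, with 4.88% of all genes. At an adjusted p of 0.05, 0 members and 0% of all genes were called, and the smallest adjusted p of any gene was 0.224. In 3 members every NR-treated mouse was above every non-treated mouse, which held for 0.775% of all genes, and in 0 members every NR-treated mouse was below, which held for 0.867%. Since the families were picked on this contrast, nothing is read from these counts. DESeq2 called 3 members higher and 0 lower at an adjusted p of 0.05, with 53 genes higher and 52 lower of 19468.

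**Figure D3:**
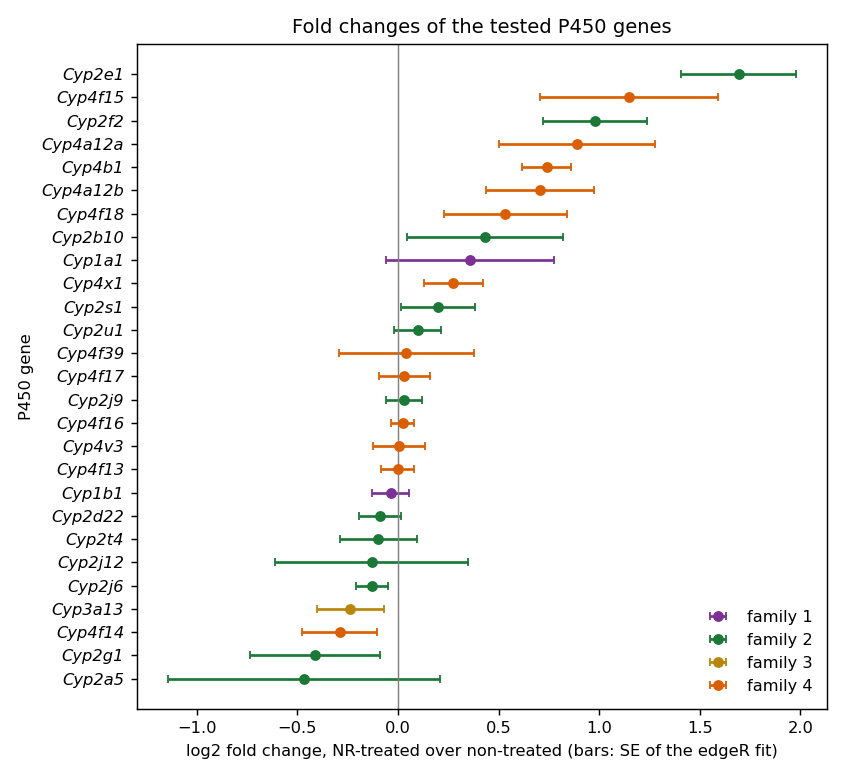
Log2 fold change of NR-treated over non-treated mice (horizontal axis) for the 27 tested P450 genes, coloured by family, with bars for the standard error (SE) of the edgeR fit. Cyp2e1 lies farthest to the right at 1.69, and Cyp2a5 farthest to the left at -0.47 with the longest bar.

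Cyp4b1 and Cyp2e1 gave the families their place. Cyp4b1, which hydroxylates medium-chain fatty acids and activates lung toxins, lies on the minus strand of chr4:115624725-115647723 (mm10). Its level was 19.7, 19.6, 18.8, 22.3 and 23.2 CPM in NR-treated replicates 1 to 5 and 14.1, 10.6, 15.3, 10.7 and 11.4 CPM in non-treated replicates 1 to 5. The groups did not overlap, and the lowest NR-treated mouse was above the highest non-treated one. The means were 20.7 ± 1.94 and 12.4 ± 2.15 CPM (SD, n = 5 each), a log2 fold change of 0.74 ± 0.12 (SE), with an adjusted p of 0.224 in edgeR and rank 3 of all genes by p. The log2 fold change stayed between 0.69 and 0.84 when any 1 mouse was left out.

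Cyp2e1 oxidizes ethanol, acetone and other small molecules, and lies on the plus strand of chr7:140763739-140774987. It was measured at 11.8, 14.6, 8.56, 9.68 and 10.5 CPM in NR-treated mice and at 5.50, 2.20, 4.69, 2.47 and 2.18 CPM in non-treated mice. Here too the groups did not overlap, and non-treated replicates 1 and 3 were the higher ones of their group, as they were for Cyp4b1. The means were 11.0 ± 2.32 and 3.41 ± 1.57 CPM (SD, n = 5 each). The log2 fold change of 1.69 ± 0.29 (SE) was the largest of the tested members, with an adjusted p of 0.224 in edgeR and rank 7 by p. It was 1.57 to 1.93 with any 1 mouse left out.

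Cyp2f2, on the plus strand of chr7:27119909-27133660, was the only other member whose groups did not overlap. Its level was 357, 248, 215, 439 and 218 CPM in NR-treated mice and 190, 171, 174, 133 and 80.8 CPM in non-treated mice. NR-treated replicates 1 and 4 were the highest, and non-treated replicate 5 the lowest. The means were 295 ± 99.1 and 149.9 ± 44.0 CPM (SD, n = 5 each), with a log2 fold change of 0.98 ± 0.26 (SE) and an adjusted p of 0.408 in edgeR. Without non-treated replicate 2 the log2 fold change was 1.04. Of the exon bases of Cyp2f2, 13.5% also lie in the annotated gene Gm15883, and reads there that fit both genes are in neither count by default.

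Because of its abundance, Cyp2f2 weighed on the difference between the groups in the summed level of the members. All members together took 884, 763, 697, 965 and 725 reads of every 1000000 counted in NR-treated mice and 662, 649, 677, 664 and 516 in non-treated mice. With Cyp2f2 left out, the sums were 521, 515, 481, 523 and 505 in NR-treated and 470, 486, 501, 533 and 436 in non-treated mice, and the groups overlapped. Cyp2f2 made up 30.4% to 45.8% of the members' reads in the NR-treated group and 15.6% to 29.0% in the non-treated group.

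**Figure D4:**
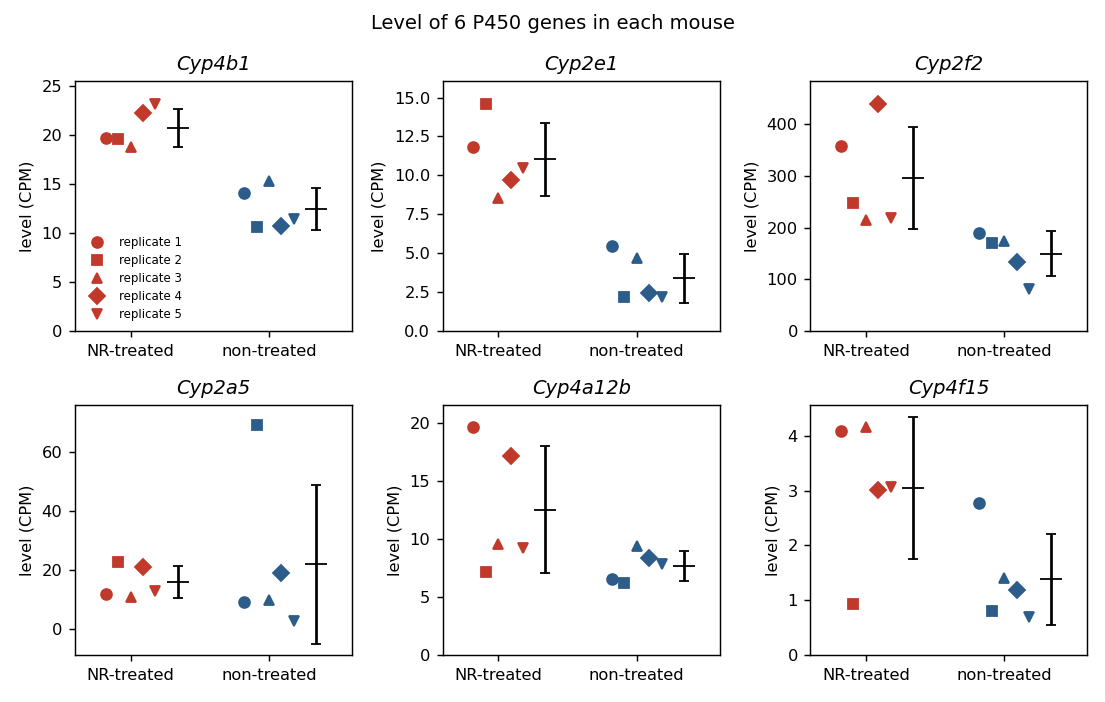
Level in CPM of 6 P450 genes, one symbol shape per replicate number, with the mean and SD (n = 5) beside each group. The groups are apart for Cyp4b1, Cyp2e1 and Cyp2f2 and overlap for Cyp2a5, Cyp4a12b and Cyp4f15, and for Cyp2a5 non-treated replicate 2 lies at 69.0 CPM.

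The other 3 members among the 6 belong to family 4, and whether they were called depended on which mice were kept. Cyp4a12b, which with Cyp4a12a makes the arachidonic acid metabolite 20-HETE, was at 19.6, 7.11, 9.59, 17.1 and 9.19 CPM in NR-treated and 6.54, 6.23, 9.42, 8.37 and 7.84 CPM in non-treated mice. Replicates 1 and 4 of the NR-treated mice were high, and the others lay within or near the non-treated range. The log2 fold change was 0.71 ± 0.27 (SE) and fell to 0.49 without NR-treated replicate 1.

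Cyp4a12a was at 12.7, 2.82, 6.27, 4.84 and 3.58 CPM in NR-treated and 3.57, 3.59, 3.52, 1.72 and 3.90 CPM in non-treated mice. Again NR-treated replicate 1 was the highest, and the groups overlapped. Its log2 fold change of 0.89 ± 0.39 (SE) was 0.43 without that mouse. Cyp4a12a and Cyp4a12b are near-copies and neighbours on chromosome 4, so they are not separate evidence. Reads that fit both equally well are in neither count by default, so their levels are uncertain. Cyp4f15 was at 4.09, 0.938, 4.15, 3.01 and 3.06 CPM in NR-treated and 2.78, 0.807, 1.41, 1.19 and 0.696 CPM in non-treated mice. Here NR-treated replicate 2 lay among the non-treated mice, and the log2 fold change was 1.15 ± 0.44 (SE).

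At an unadjusted p of 0.05 in edgeR, Cyp4a12b was no longer called without NR-treated replicate 1 or 4 or non-treated replicate 1 or 2. The same was found for Cyp4f15 without NR-treated replicate 1 or 3 or non-treated replicate 2 or 5, and for Cyp4a12a without NR-treated replicate 1 or 3 or any 1 of the non-treated mice. Without NR-treated replicate 1 or without non-treated replicate 2, the 6 members called higher became 3, which were Cyp4b1, Cyp2e1 and Cyp2f2. In these 2 fits 775 and 1015 of all genes were called higher, against 886 with all mice.

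The chromosome 4 group that holds Cyp4b1, Cyp4a12a and Cyp4a12b has 1 further tested gene, Cyp4x1, best known from the brain. It was at 6.98 to 8.86 CPM in NR-treated and 4.89 to 8.26 CPM in non-treated mice, and the groups overlapped. The 3 other Cyp4a genes of this group with reads had 45 (Cyp4a32), 5 (Cyp4a31) and 3 (Cyp4a10) in all 10 mice.

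Among the remaining abundant members, the levels of the groups lay close together. Cyp1b1, known for the metabolism of estrogens and for its role in the eye, was at 78.8 ± 5.34 CPM in NR-treated and 80.9 ± 11.6 CPM in non-treated mice. Cyp2d22, of the subfamily that oxidizes many drugs, was at 104.5 ± 10.1 and 111 ± 17.8 CPM. Cyp4f16 varied least, with 21.2 to 23.8 CPM in NR-treated and 21.6 to 23.1 CPM in non-treated mice. For these genes and for Cyp2j6, Cyp4f17, Cyp4f13 and Cyp2s1 the log2 fold change lay between -0.13 and 0.20. Of the textbook induced genes, Cyp1b1 had a log2 fold change of -0.04 ± 0.09 (SE) and Cyp2b10 of 0.43 ± 0.39. The log2 fold change was 0.36 ± 0.42 for Cyp1a1 and -0.24 ± 0.17 for Cyp3a13. None of these genes passed the unadjusted threshold.

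On a log scale, Cyp2a5 had the widest spread of the tested members. It was at 11.7, 22.6, 11.0, 20.9 and 12.9 CPM in NR-treated mice and at 9.27, 69.0, 9.78, 18.9 and 2.55 CPM in non-treated mice. The high value is that of non-treated replicate 2, the library that also stood apart in airway genes. The log2 fold change was -0.47 ± 0.67 (SE) with that mouse and 0.66 without it, so its direction depends on 1 library.

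Promoter sequences were read from RefSeq (GRCm38.p6), which had windows from 250 bases before to 50 after the start for 65 of the 80 members, with 72 windows in all. They are shown for the 3 members whose groups did not overlap, as far as they lie upstream of the annotated gene. Matches to the 3 motifs searched on both strands are in capitals, and they are the AHR core GCGTG, the nuclear receptor half-site AGGTCA and the TATA box TATAAA.
Cyp4b1: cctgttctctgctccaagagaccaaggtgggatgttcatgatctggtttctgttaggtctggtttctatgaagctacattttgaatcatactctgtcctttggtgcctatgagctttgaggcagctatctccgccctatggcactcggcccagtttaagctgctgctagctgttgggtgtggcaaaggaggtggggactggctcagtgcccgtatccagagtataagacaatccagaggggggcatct
Cyp2e1: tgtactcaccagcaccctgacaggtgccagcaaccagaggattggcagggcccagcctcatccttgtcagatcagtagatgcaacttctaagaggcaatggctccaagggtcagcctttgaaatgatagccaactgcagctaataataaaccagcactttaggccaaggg
Cyp2f2: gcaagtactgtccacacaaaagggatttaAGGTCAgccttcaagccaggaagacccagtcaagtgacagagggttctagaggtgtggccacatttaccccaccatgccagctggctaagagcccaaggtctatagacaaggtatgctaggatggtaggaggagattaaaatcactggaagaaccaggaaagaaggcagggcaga

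These stretches are the minus strand of chr4:115647724-115647971 for Cyp4b1 and the plus strand of chr7:140763569-140763738 for Cyp2e1 and of chr7:27119705-27119908 for Cyp2f2. Cyp2f2 held 1 AGGTCA, and the printed stretches of Cyp4b1 and Cyp2e1 held none of the 3 motifs. The whole window of Cyp2e1 did hold TATAAA, in the part that lies inside the annotated gene and is not shown. Over the whole windows, TATAAA was found in 40.3% of the members' windows and in 13.0% of the 23 windows of tested members, against 13.6% of all 32851 windows. GCGTG was found in 19.4%, 39.1% and 32.4%, and AGGTCA in 27.8%, 13.0% and 16.3%. Thus TATAAA and AGGTCA were more frequent among all members than among the tested ones, and GCGTG less frequent. Many members are near-copies of each other, so the windows are not independent, and a match is not evidence of binding.

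The genes that supply P450 enzymes with electrons and heme were all tested (17 of 17). Of these, 6 had a higher and 11 a lower fitted level, and 0 were called higher and 2 lower at an unadjusted p of 0.05 in edgeR. Over all 18329 tested genes, 47.1% had a higher fitted level, 4.83% were called higher and 4.88% lower. These shares also stand beside the counts of the lists that follow. The median of the 17 log2 fold changes was -0.06. The called genes were Uros (-0.28 ± 0.12, SE) and Cpox (-0.52 ± 0.23), both enzymes of heme synthesis. The P450 reductase Por was at 167 to 209 CPM in NR-treated and 157 to 244 CPM in non-treated mice, and Pgrmc1, a heme-binding partner and the most abundant of the list per length, at 221 to 245 and 220 to 254 CPM.

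Of the 17 xenobiotic and lipid receptors, 13 were tested, with 1 called higher and 1 lower. Pparg, the receptor that drives fat cell genes, was at 2.62 to 5.45 CPM in NR-treated and 1.41 to 2.73 CPM in non-treated mice, and its log2 fold change was 0.97 ± 0.23 (SE). Rxrb, a partner of these receptors, had -0.11 ± 0.04 (SE). Nr1h2, an oxysterol receptor and the most abundant of the list per length, was at 162 to 179 and 164 to 181 CPM. The AHR itself (Ahr) was at 11.5 to 14.4 and 10.9 to 14.4 CPM, while Nr1i3, which encodes CAR, and Hnf4a did not reach the filter. The 5 AHR targets outside the P450 genes included 0 called in either direction, and Nqo1, a quinone reductase and the most abundant of them per length, was at 15.7 to 19.0 and 15.2 to 20.9 CPM.

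Enzymes that share substrates with the P450 genes were compared in the same way. Of 17 tested eicosanoid genes, 8 had a higher and 9 a lower level and 0 were called. The prostaglandin D synthase gene Ptgds was the most abundant per length, with 15700 to 19500 CPM in NR-treated and 16200 to 22700 CPM in non-treated mice. All 23 conjugation and clearance genes were tested, and 4 were called higher and 1 lower. The carboxylesterase gene Ces1f had a log2 fold change of 1.38 ± 0.34 (SE) and the flavin monooxygenase gene Fmo2 of 0.53 ± 0.17. Gsta4, a glutathione transferase for lipid aldehydes, was lower, with 186 to 285 CPM against 275 to 418 CPM and a log2 fold change of -0.55 ± 0.15 (SE). It was also the most abundant gene of the list per length, at 231 FPKM.

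P450 genes of the other families, which make and break down steroids, bile acids, vitamins and retinoic acid, numbered 19, of which 9 were tested. Cyp26b1, which breaks down retinoic acid, was called higher at an unadjusted p of 0.05 in edgeR (0.47 ± 0.18, SE), and Cyp11a1, the first enzyme of steroid synthesis, lower (-0.63 ± 0.27). Cyp27a1, a sterol 27-hydroxylase, was the most abundant per length, with 26.4 to 35.4 CPM in NR-treated and 29.3 to 37.6 CPM in non-treated mice. Of the genes named from the pathway lists and the other P450 families, none had an adjusted p of 0.05 or below in edgeR, while DESeq2 gave Pparg an adjusted p of 0.0200 and none of the others one below 0.05. Without non-treated replicate 2, Cyp11a1 was no longer called. The genes called higher became 2 among the receptors, 1 among the eicosanoid genes and 5 among the conjugation genes. Over all genes, 1015 were called higher in that fit, against 886 with all mice.

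Markers of other cells that carry P450 genes were also measured, and their values stand here beside those of the members. Cyp2f2 is known from airway epithelium. The summed level of the 12 airway and middle ear genes was 5660, 1910, 3050, 7660 and 1770 CPM in NR-treated and 1920, 34000, 1460, 1280 and 841 CPM in non-treated mice. Replicates 1 and 4 of the NR-treated mice were the highest of their group in that sum and in Cyp2f2, and non-treated replicate 5 the lowest in both. Non-treated replicate 2 had the highest sum of all mice, yet its Cyp2f2 level of 171 CPM was below that of non-treated replicates 1 (190 CPM) and 3 (174 CPM). Of 11 tested genes of the list, 7 were higher, 4 lower and 2 called higher, and the median of the log2 fold changes was 0.20. Without non-treated replicate 2, all 11 were higher, 4 were called, and the median was 1.12. In that fit 1015 of all genes were called higher, against 886 (4.83%) with all mice. The 4 genes that changed direction were Bpifb1, Muc5b, Muc5ac and Reg3g. The genes called with all mice were Bpifa1, a secreted protein of upper airway and middle ear (1.40 ± 0.39, SE), and Scgb3a1 (2.02 ± 0.63). Scgb1a1, the defining gene of club cells, was at 0 to 0.193 CPM. The sum of non-treated replicate 2 came from Bpifb1 (28400 CPM) and Muc5b (4260 CPM). The part of these cells in the levels of Cyp2f2 and Cyp2a5 was not tested.

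**Figure D5:**
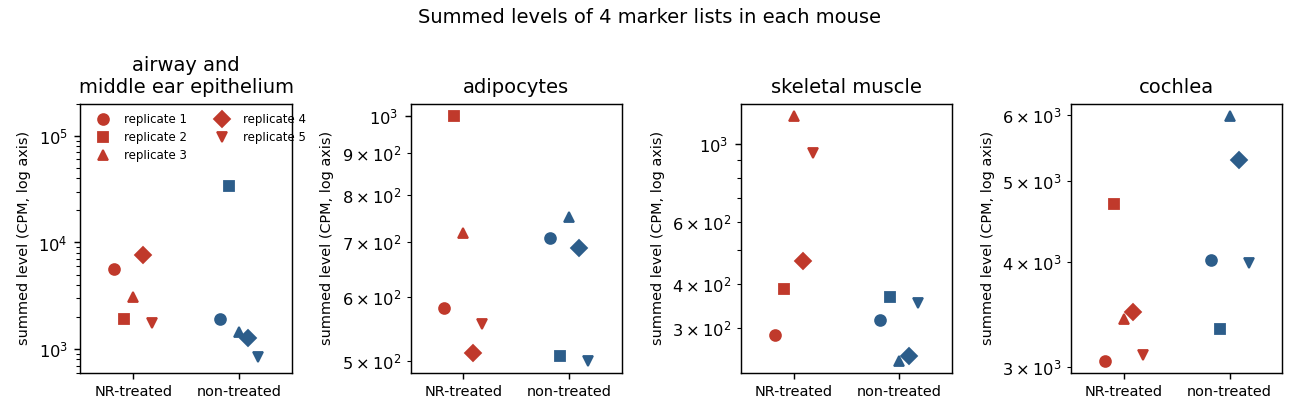
Summed level in CPM on a log axis of 4 marker lists, one symbol shape per replicate number. Non-treated replicate 2 stands apart in the airway list at 34000 CPM, NR-treated replicates 3 and 5 are highest in the muscle list, and the groups overlap in all 4 lists. In the non-treated mice most of the muscle sum is Pvalb.

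Cyp2e1 is also known from fat. Of the 15 tested adipocyte genes, 14 were higher and 1 lower in NR-treated mice, and 9 were called higher at an unadjusted p of 0.05 in edgeR. Among all tested genes 47.1% were higher and 4.83% were called higher. The median of their log2 fold changes was 1.75. Plin1, which coats lipid droplets, was at 7.51, 27.2, 9.38, 5.45 and 6.18 CPM in NR-treated and 2.33, 1.08, 1.09, 0.705 and 1.58 CPM in non-treated mice. NR-treated replicate 2 was the highest for Plin1 and for Cyp2e1, but not for Cyp4b1. The summed list was at 512 to 1000 and 501 to 751 CPM and overlapped, since Car3, which had -0.25 ± 0.24 (SE), made up most of it. The fat hormone gene Adipoq, at 7.59 to 17.1 and 2.42 to 12.2 CPM, was detected in every mouse. The part of adipocytes in the levels of Cyp2e1 and Cyp4b1 was not tested.

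The other marker lists differed in how many of their genes were called. Among all tested genes 47.1% were higher, 4.83% were called higher and 4.88% lower. All 9 tested skeletal muscle genes were higher and 6 were called. Acta1 was highest in NR-treated replicates 3 and 5 (286 and 124 CPM). Neither was the highest mouse for Cyp2e1. For Cyp4b1, replicate 5 was the highest NR-treated mouse (23.2 CPM) and replicate 3 the lowest (18.8 CPM). Pvalb, the most abundant of the list per length, was at 276 to 383 and 231 to 354 CPM. In the non-treated mice Pvalb made up most of the summed list, which was at 243 to 368 CPM. All 11 cochlea genes were lower and 4 were called, among them Otos (-0.73 ± 0.22, SE). Without non-treated replicate 2 the called genes were 7, and 932 of all genes were called lower, against 894 with all mice. Of 10 endothelial genes, 9 were higher, 1 lower and 3 called higher, and Cldn5, the most abundant per length, was at 47.6 to 65.2 and 46.8 to 65.0 CPM. Of 11 genes of neutrophils and myeloid progenitors, 10 were higher, 1 lower and 1 called, and S100a9, the most abundant per length, was at 338 to 1130 and 326 to 897 CPM. The 3 tested hepatocyte genes were lower and 0 were called. Their part in the members' levels was not tested.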

How the data were processed

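The authors deposited whole-number read counts per gene for each of 10 mice, without normalization. Per the labels, reads were filtered with fastp, aligned to mm10 with STAR version 2.6.1d and counted with featureCounts version 1.5.0, and the annotation release was not given in the sources used here. The reads were not analysed here, so reads shared between copies could not be reassigned.

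Counts were tested with edgeR version 4.0.16 in R version 4.3.3 (filterByExpr, TMM normalization, glmQLFit and glmQLFTest, no covariate, 18329 genes, Benjamini-Hochberg adjustment over all of them). CPM and FPKM were computed from TMM-scaled library sizes and the gene lengths in the files. A called gene has a p of 0.05 or below. DESeq2 version 1.42.0 was an alternative. The fit and the sign-flip test were tested on simulated data. Python was version 3.11.15.

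The members and the 13 lists, which are 5 pathway lists, 7 marker lists and the sex genes, were chosen with earlier results of these data known. Named members were Cyp4b1, Cyp2e1, the 10 most abundant, those at an unadjusted p of 0.05 and 9 textbook induced genes. From each list the most abundant gene and up to 3 called genes were named, with the markers that show a tissue. Cyp2g1 and the low genes counted in the text were named after their values were seen, as were Cyp4x1 and the genes that set 1 library apart. No 2 libraries of a group agreed within sampling noise. The limit for a count of 0 covers counting error only.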

Additional observations from a re-analysis of the deposited data

Results flagged for a closer look

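In groups of 5 mice, a single mouse was marked when its gap to the nearest other mouse took up more than 0.71 of the group's range. Of 62 series of 5 values tested (named members, summed lists and the members' total), 10 were marked, where chance marks about 1 in 20.

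Among the members, Cyp2a5 was at 69.0 CPM in non-treated replicate 2, with the others at 2.55 to 18.9 CPM, and the summed airway and middle ear list was at 34000 CPM in that mouse, with the others at 841 to 1920 CPM. Cyp4a12a was low in non-treated replicate 4, at 1.72 CPM against 3.52 to 3.90 CPM. The members' total was low in non-treated replicate 5, at 516 reads of every 1000000 against 649 to 677. In the NR-treated mice, Cyp2d22 was at 122 CPM in replicate 2 (others 95.9 to 103), Cyp1b1 at 88.3 CPM in replicate 5 (others 75.7 to 77.8) and Cyp4f17 at 15.6 CPM in replicate 3 (others 18.1 to 19.1). NR-treated replicate 2 was also apart in 2 summed lists, with 1440 CPM for neutrophils and myeloid progenitors (others 4130 to 4820) and 4700 CPM for cochlea genes (others 3050 to 3490). NR-treated replicate 3 was at 46.8 CPM for hepatocyte genes (others 16.0 to 21.3), which came from Ttr at 43.2 CPM.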

How the results depend on the processing

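Cyp4b1, Cyp2e1 and Cyp2f2 kept their direction and an unadjusted p under 0.05 in all 15 alternative fits, with adjusted p-values of 4.71e-05 to 0.617, 6.41e-06 to 0.617 and 0.0334 to 0.751. The fits reuse the mice and the contrast on which the families were chosen, so this is a description and not support. The number of members called higher, 6, was 3 to 7 when 1 mouse was left out, and the number called lower, 0, was 0 to 1 (Cyp2j6 without NR-treated replicate 2, Cyp4f14 without non-treated replicate 3). In the same fits 669 to 1414 of all genes were called higher and 484 to 1059 lower, against 886 and 894 with all mice. With every gene that had at least 1 read, 8 of 51 members were called higher (Cyp4a32 and Cyp2b19 were added). In that fit 1414 of 33224 genes were called higher, against 886 of 18329 in the main fit. At an adjusted p of 0.05, DESeq2 called 3 members and 105 genes, where edgeR called 0 of each, and the cause was not tested. Of the 9 neighbour pairs in the order of levels, 4 differed. That number was 4 to 5 with 1 mouse left out, and 8 when levels were not divided by length, where Cyp2j6 against Cyp1b1 (-0.45) and Cyp4b1 against Cyp2s1 (-0.83) changed sign. It was 0 with only the 5 non-treated mice, where the smallest p the test allows is 0.0625.

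The replicate numbers do not pair the mice. Deviations of same-numbered mice correlated at 0.17, -0.118, -0.22, 0.016 and 0.133, and 1 of 5 correlated best with its own number. With the replicate block, 5 members were called higher, 0 lower and 0 at an adjusted p of 0.05, while 879 of all genes were called higher and 776 lower. Cyp4a12a, with a log2 fold change of 0.74, was the one no longer called, and Cyp2a5 changed sign to 0.20 without being called in either fit. Leaving non-treated replicate 2 out of the list counts was chosen after seeing the data, and it moved the airway genes from 7 higher and 4 lower to 11 and 0. Depth limited the 24 untested members with reads, and nothing can be said of a change in the 29 members with 0 reads.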

Other observations

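The files also hold 30 genes with P450 names of families 1 to 4 that are not protein-coding, such as pseudogenes. Of these, 23 had 0 reads in all mice. The most counted was Cyp4b1-ps2, a pseudogene of Cyp4b1, with 28, 29, 27, 21 and 31 reads in NR-treated and 81, 37, 34, 13 and 46 reads in non-treated mice. Its groups overlapped, with a log2 fold change of -0.58 ± 0.42 (SE) in edgeR, while that of Cyp4b1 was 0.74. The antisense gene Cyp4x1os had 112 reads in all and overlaps 10.7% of the exon bases of Cyp4x1. Since the counting took no account of strand, reads there that fit both genes are in neither count by default.

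Cyp2g1, a gene known from the olfactory mucosa, was at 3.18, 5.01, 4.36, 5.19 and 4.16 CPM in NR-treated and 2.97, 3.45, 8.49, 9.69 and 4.55 CPM in non-treated mice. The higher values were those of non-treated replicates 3 and 4, which also had the highest summed levels of cochlea genes (5990 and 5300 CPM). These 2 measures were compared after their values were seen, and no test was made.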
